A study of Mus musculus with 15 samples.

Results

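Laminins, nidogens and their integrin receptors build and grip the basement membrane, the thin sheet of matrix that wraps every muscle fibre and every capillary. A laminin is a trimer of an alpha, a beta and a gamma chain, and nidogens tie the laminin network to the collagen IV network. Integrins are alpha-beta pairs in the cell membrane that bind matrix outside the cell and connect it to the cytoskeleton inside. In skeletal muscle, loss of the laminin alpha2 chain or of integrin alpha7 causes muscular dystrophy in mice and humans.

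The genes described are 10 of the 20406 in the deposited count table, chosen by symbol as basement membrane laminin chains, nidogens, Sparc and matrix-binding integrins. They are the laminin chains Lama2, Lama4, Lamb1 and Lamc1, the nidogens Nid1 and Nid2, the collagen-binding matricellular gene Sparc, and the integrins Itga1, Itga7 and Itgb1. All 10 passed the filter on low counts, so no gene was lost before testing. The lowest expected count behind any value was 92.4, for Nid2, and the highest was 5235, for Itgb1.

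All 10 are protein-coding genes, and their positions are given on mm10 as in the deposited table. The laminin chain genes are Lama2 on chromosome 10 (26980036 to 27619758, minus strand), Lama4 on chromosome 10 (38965515 to 39110188, plus strand), Lamb1 on chromosome 12 (31265234 to 31329644, plus strand) and Lamc1 on chromosome 1 (153218922 to 153332786, minus strand). Nid1 lies on chromosome 13 (13437551 to 13512269, plus strand), Nid2 on chromosome 14 (19751265 to 19811787, plus strand) and Sparc on chromosome 11 (55394500 to 55423183, minus strand). The integrin genes are Itga1 on chromosome 13 (114953096 to 115101964, minus strand), Itga7 on chromosome 10 (128933818 to 128958282, plus strand) and Itgb1 on chromosome 8 (128685654 to 128733200, plus strand).

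RNA of whole plantaris muscle, a fast hindlimb muscle, was sequenced in 15 libraries from adult male HSA-GFP mice, 3 libraries in each of 5 groups. All groups carry the same transgenes, in which the human skeletal actin promoter drives a tetracycline-controlled activator in muscle fibres and a response element drives a fluorescent histone, so the label marks fibre nuclei and not the other cells of the muscle. In the group 9M_PoW+DT, mice that entered at 4 months of age did 8 weeks of progressive weighted wheel running (PoWeR), then 12 weeks of detraining, and were taken at 9 months. The group 9M_UT held untrained mice of 9 months. The groups 6M_POW_LD and 6M_PoW carry titles of mice taken at 6 months after 8 weeks of PoWeR, and 6M_UT held untrained mice of 6 months. The labels do not explain LD.

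Labels and depth bear on every comparison below. Titles and treatment fields conflicted in 9 libraries: the field exchanged all 6 libraries of the 9-month groups and called the 3 LD libraries sedentary. Groups follow the titles here, so directions that use these libraries rest on them. Identifiers in the titles begin with PoW, DT or LD, so 9 months of age goes with DT and the LD libraries stand alone, and neither can be told apart from the library series. The labels do not say whether each replicate is its own mouse, so a p-value here reflects library-to-library spread, which may be technical. Totals ran from 18865048 to 27688842 expected counts. Muscle fibre markers were abundant in all groups, with a summed level of 120484 to 159141 CPM (read counts scaled to the effective size of each library) over 10 genes. In bulk muscle, fewer cells of a type and less RNA per cell cannot be told apart.

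The sequences just upstream of 3 of these genes are shown because they represent the range of behaviour described below: Itga1 had the largest fold change with training, Lamb1 was called in 1 comparison, and Itgb1 varied least between libraries. They come from the RefSeq promoter table on GRCm38.p6 (mm10), which held entries for 6 of the 10 genes (Lama2, Lamb1, Nid1, Sparc, Itga1 and Itgb1). Each run is 5′ to 3′ on the gene's own strand and stops before the first annotated exon. The Itga1 stretch is chr13:115101965-115102214 on the minus strand, the Lamb1 stretch is chr12:31265043-31265233 on the plus strand and the Itgb1 stretch is chr8:128685404-128685653 on the plus strand. Capitals mark matches, on either strand, to the GC box GGGCGG, the CCAAT box CCAAT, the TATA box TATAAA, the AP-1 motif TGANTCA or the TEAD motif CATTCC.
Itga1: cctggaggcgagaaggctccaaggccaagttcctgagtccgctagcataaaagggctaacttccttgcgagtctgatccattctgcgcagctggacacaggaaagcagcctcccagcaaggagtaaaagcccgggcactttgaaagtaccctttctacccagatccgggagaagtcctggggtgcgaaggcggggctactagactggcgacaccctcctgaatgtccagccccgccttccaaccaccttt
Lamb1: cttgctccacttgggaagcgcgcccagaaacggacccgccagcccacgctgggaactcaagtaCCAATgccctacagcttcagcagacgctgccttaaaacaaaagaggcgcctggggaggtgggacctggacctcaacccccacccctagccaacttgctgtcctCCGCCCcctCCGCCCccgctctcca
Itgb1: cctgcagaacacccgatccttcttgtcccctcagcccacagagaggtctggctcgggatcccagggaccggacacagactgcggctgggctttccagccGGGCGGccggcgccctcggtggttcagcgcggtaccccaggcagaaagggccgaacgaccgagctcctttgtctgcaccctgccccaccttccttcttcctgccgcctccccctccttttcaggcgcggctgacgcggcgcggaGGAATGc
The Lamb1 stretch held 2 GC boxes and 1 CCAAT box, the Itgb1 stretch held 1 GC box and 1 TEAD motif, and the Itga1 stretch held none of the 5. No matches overlapped each other. Of 32851 promoter windows of the same table, each 250 bases long, 32.7% held the GC box, 33.8% the CCAAT box, 12.4% the TATA box, 6.75% the AP-1 motif and 12.6% the TEAD motif. The Lamb1 stretch, cut at the first exon, is 191 bases long, and its full window of 250 bases held the same 3 matches. A match is a description of these letters only.

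Exon length here counts every base that lies in any annotated exon of a gene. That can exceed the length of a single transcript, so ranks between genes are approximate. Per kilobase of exon, and averaged over the 15 libraries, Itgb1 stood highest. It encodes the beta1 chain that pairs with many integrin alpha chains, and its level was 45.0 CPM per kb. Sparc followed at 24.9 and Lamc1, the gamma1 chain shared by most laminins of muscle, at 12.2 CPM per kb. Itga7, the laminin-binding alpha chain of muscle fibres, stood at 8.60 CPM per kb, and Nid1, the more abundant nidogen, at 7.55 CPM per kb. The remaining 5 genes lay low: Lama2, the alpha chain of the fibre basement membrane, at 2.73 CPM per kb, Lamb1 at 1.69, Lama4, the alpha chain best known from blood vessels, at 1.45, Itga1, a collagen-binding alpha chain, at 1.26, and Nid2 at 1.17 CPM per kb. Lamb1 is not the only beta chain of this muscle: Lamb2 stood at 16.7 CPM per kb. Among integrins outside the 10, Itgb5 had the highest level, 22.7 CPM per kb.

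Across the 15 libraries the 10 genes differed in their spread. The highest library stood 1.28 times above the lowest for Itgb1, 1.39 times for Nid1 and 1.42 times for Lamc1. The widest spreads were 2.52 times for Lama4, 2.33 times for Itga1 and 2.01 times for Lamb1. For Lama4 and Lamb1 the lowest library was the same, untrained 6-month replicate 1, at 9.37 and 10.7 CPM. When the 5 groups were ordered by their mean level, neighbours in the order overlapped in 37 of 40 cases. The 3 that did not overlap all had 6M_POW_LD on top: Lama4 over 6M_PoW, Lamc1 over 9M_UT and Itga7 over 9M_PoW+DT. Over all 15181 genes tested, 5.18% of such neighbours did not overlap, and 6M_POW_LD was on top in 26.0% of those.

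**Figure D1:**
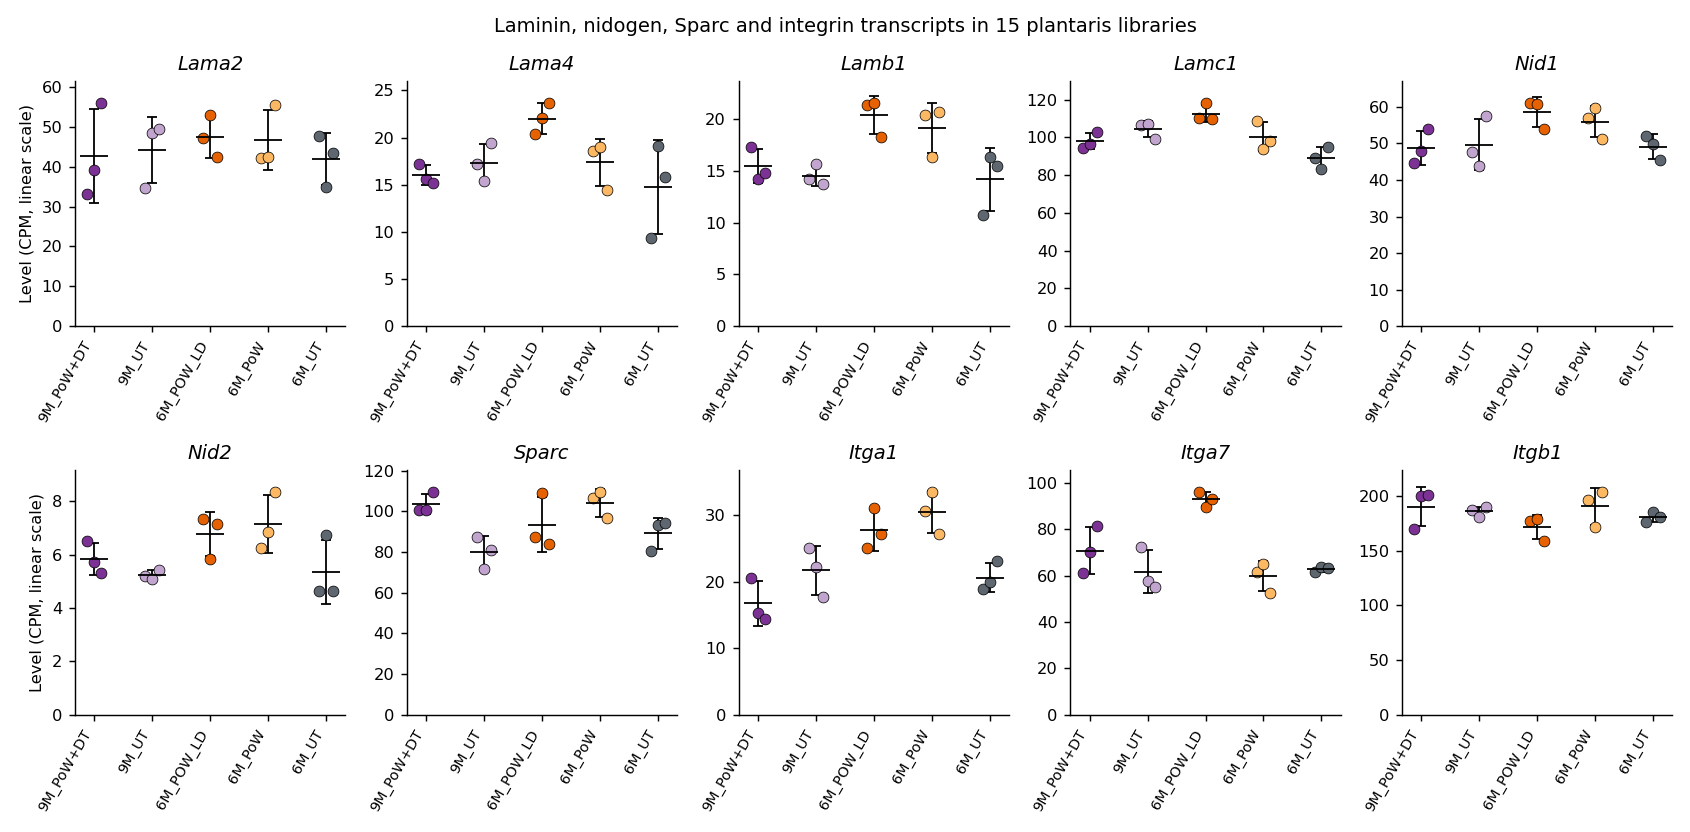
Level of each of the 10 genes (y axis, CPM on a linear scale from 0) in the 5 groups (x axis). Points are single libraries, horizontal bars are means and whiskers are SD over 3 libraries. Itga7 sits between 89.8 and 96.1 CPM in 6M_POW_LD and no higher than 81.3 CPM elsewhere, while Itgb1 stays between 159 and 204 CPM.

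After 8 weeks of training, 9 of the 10 genes had a higher mean than in untrained muscle of the same age, but none passed the test. The median log2 fold change of the 10 was 0.21, against 0.0013 over all 14919 genes tested. Itga1 and Sparc were the pair whose trained libraries all lay above all untrained ones; 7.88% of all genes showed such a separation upward. At an adjusted p under 0.05 (edgeR quasi-likelihood test, Benjamini-Hochberg adjustment over all genes), 0 of the 10 were called, with 0% of all genes called. At an unadjusted p under 0.05, 5 of the 10 were higher and none lower, against 4.73% of all genes higher and 5.02% lower. DESeq2 called 112 genes, 0.774% of those to which it gave an adjusted p, and none of the 10. A p above the threshold does not show that levels were equal.

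Among the laminin chains, Lamb1 had 20.4, 16.3 and 20.7 CPM in trained muscle, against 10.7, 16.4 and 15.5 CPM in untrained muscle. The lowest trained library and the highest untrained one nearly coincided, so the groups overlapped. Its log2 fold change was 0.43 ± 0.15 (SE), with adjusted p = 0.377 (edgeR). Lamc1 had 109, 93.8 and 98.0 CPM in trained mice and 89.0, 83.0 and 94.8 CPM in untrained mice, and here too the ranges overlapped, by the lowest trained library. Its log2 fold change was 0.17 ± 0.079, with an edgeR adjusted p of 0.4998. Lama2 and Lama4, the alpha chains, gave log2 fold changes of 0.15 ± 0.21 and 0.23 ± 0.20 with adjusted p of 0.860 and 0.748 (edgeR), and their ranges overlapped widely. The Lama4 value depended on untrained replicate 1, without which it was -0.011.

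Of the nidogens, Nid2 had 6.26, 6.85 and 8.35 CPM in trained muscle, against 4.65, 6.75 and 4.64 CPM in untrained muscle. One untrained library lay inside the trained range. The log2 fold change was 0.42 ± 0.19 for Nid2 and 0.19 ± 0.11 for Nid1, with edgeR adjusted p of 0.499 and 0.602. Nid2 values are uncertain, because Rtraf on the opposite strand shares 437 of its exon bases with Nid2 and stands at 46.1 CPM on average, against 6.07 CPM for Nid2, and the sources used here do not say whether counting used strand. Rtraf itself gave a log2 fold change of 0.055 ± 0.13 (adjusted p = 0.929, edgeR).

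Sparc, whose product binds collagen and guides matrix assembly, had 107, 109.5 and 96.5 CPM in trained muscle, against 80.5, 93.2 and 94.2 CPM in untrained muscle. Every trained library was above every untrained one, by a narrow gap. The log2 fold change was 0.22 ± 0.090, with adjusted p = 0.437 (edgeR).

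None of the 3 integrin chains was called. Itga1, which with beta1 forms a collagen IV receptor, had 30.6, 33.4 and 27.2 CPM in trained muscle, against 18.9, 19.9 and 23.0 CPM in untrained muscle. All 3 trained libraries were above the untrained ones. Its log2 fold change of 0.56 ± 0.15 was the largest of the 10, with adjusted p = 0.219 (edgeR), or 0.0790 with DESeq2. Itga7 averaged 59.7 ± 6.53 CPM in trained mice and 62.7 ± 1.13 CPM in untrained mice (SD, n = 3 each), and its log2 fold change of -0.071 ± 0.12 was the only one below 0. Itgb1 averaged 191 ± 16.7 CPM in trained mice and 181 ± 4.51 CPM in untrained mice (SD, n = 3 each), with a log2 fold change of 0.077 ± 0.081. The span of Itga1 contains Pelo, a gene on the same strand at 8.82 CPM that shares no exon base with it. Pelo had a log2 fold change of 0.076 ± 0.17 (adjusted p = 0.926, edgeR).

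Markers of other cell types did not all move the same way in this comparison. Summed over 12 endothelial markers, the level was 478 to 530.4 CPM in trained mice and 405 to 443 CPM in untrained mice, and 10 of the 12 had a log2 fold change above 0. For 11 markers of fibro-adipogenic progenitors, the matrix-making cells between fibres, it was 829 to 960.0 CPM and 706 to 791 CPM, with 11 of 11 above 0. For 12 leukocyte markers it was 71.9 to 93.1 CPM in trained mice and 50.9 to 59.2 CPM in untrained mice, with 11 of 11 tested above 0. Tendon cell markers had 7 of 7 above 0 (median log2 fold change 0.21) and satellite cell markers 4 of 6 (median 0.42). Pericyte and smooth muscle markers had 8 of 10 above 0 (median 0.18) and Schwann cell markers 6 of 9 (median 0.057). Adipocyte markers had 1 of 7 above 0 (median -0.33) and red cell genes 0 of 5 (median -0.099). None of these markers was called (edgeR), and no defining marker of these lists was at 0 in any group. Their part in the values of the 10 genes was not tested.

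**Figure D2:**
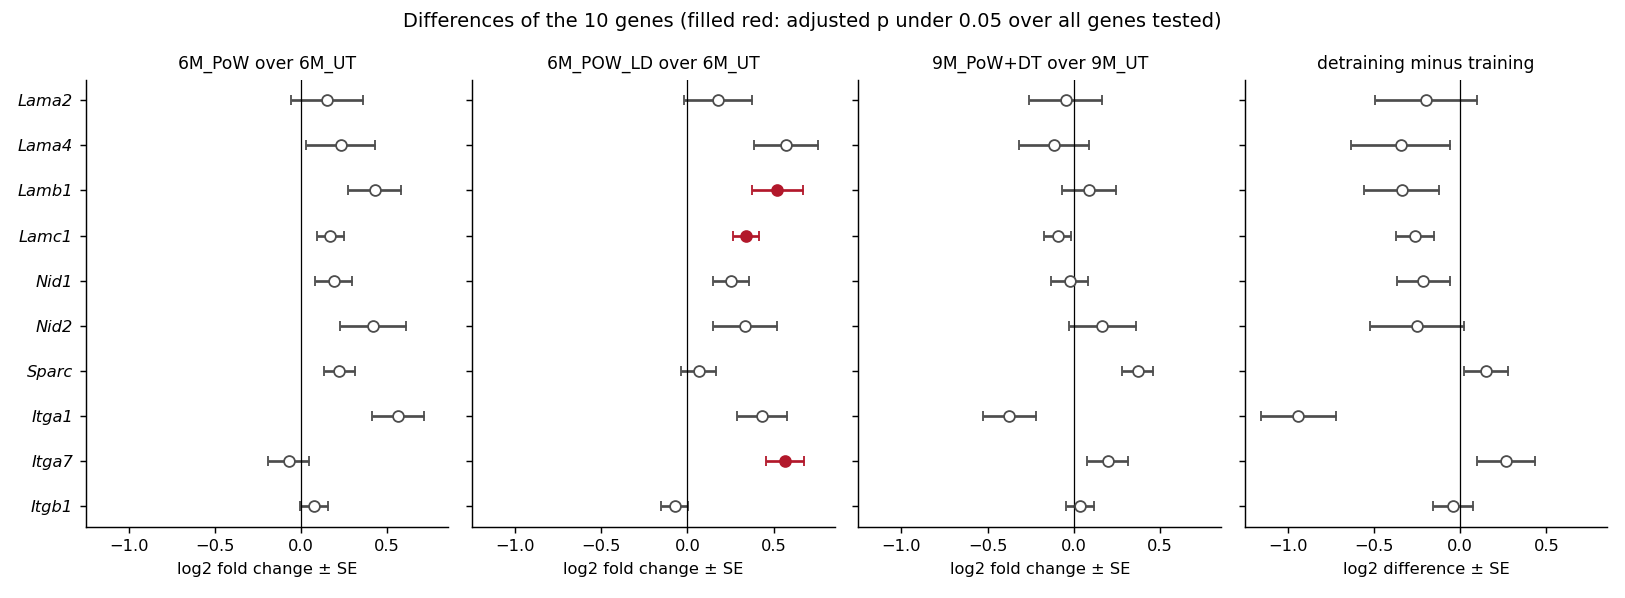
Log2 fold change, or log2 difference of fold changes in the right panel, of the 10 genes (x axis, whiskers are SE) in 4 comparisons. Red filled points have an edgeR adjusted p under 0.05 over all genes tested: Lamb1, Lamc1 and Itga7 in 6M_POW_LD over 6M_UT, and none in the other 3 panels. Itga1 lies at 0.56 for training, at -0.38 for detraining and at -0.94 for their difference.

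After 12 weeks without running, the group means of the 10 genes fell on both sides of those of untrained 9-month muscle. In detrained muscle, 5 of the 10 had a higher and 5 a lower mean, with a median log2 fold change of 0.0054, against 0.0048 over all genes. None of the 10 was called with edgeR or with DESeq2, and 3 genes, 0.0201% of those tested, were called in all. At an unadjusted p under 0.05 there were 2, Sparc higher and Itga1 lower, against 3.22% of all genes higher and 3.29% lower.

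Sparc had 101, 101 and 109.6 CPM in detrained muscle, against 87.5, 71.9 and 81.2 CPM in untrained 9-month muscle. The groups were well apart, and 6.19% of all genes were separated upward in this way. Its log2 fold change was 0.37 ± 0.090, with adjusted p = 0.575 (edgeR). By p it stood at rank 22 of 14919 genes. Itga1 had 20.6, 15.3 and 14.3 CPM in detrained and 25.1, 22.2 and 17.7 CPM in untrained 9-month muscle, so that 1 detrained library lay inside the untrained range. Its log2 fold change was -0.38 ± 0.15 (adjusted p = 0.720, edgeR).

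Itga7 averaged 70.8 ± 10.1 CPM in detrained and 61.8 ± 9.37 CPM in untrained 9-month muscle (SD, n = 3 each), with wide overlap and a log2 fold change of 0.20 ± 0.12. Lama2 had 33.0, 39.0 and 55.9 CPM in detrained muscle, against 34.6, 48.3 and 49.4 CPM in untrained muscle. The detrained libraries of Lama2 spanned the whole range of this gene in the series, both its highest and its lowest value. The other 6 genes, Lama4, Lamb1, Lamc1, Nid1, Nid2 and Itgb1, gave log2 fold changes between -0.11 and 0.17, all with overlapping ranges. Endothelial markers summed to 362 to 442 CPM in detrained and 452 to 485 CPM in untrained 9-month muscle, with 0 of 12 above 0, and satellite cell markers to 30.8 to 42.2 CPM and 42.2 to 50.8 CPM. Adipocyte markers summed to 111 to 199 CPM in detrained and 119 to 132 CPM in untrained 9-month muscle, with 6 of 7 above 0. Tendon cell markers had 7 of 7 above 0 (median 0.26), Schwann cell markers 9 of 9 (median 0.18) and red cell genes 5 of 5. The red cell sum was 1040 CPM in detrained replicate 2, against 347 and 350 CPM in the other detrained libraries. Of satellite cell and fibro-adipogenic progenitor markers, 1 of 6 and 4 of 11 were above 0. None of these markers was called (edgeR). The part of these cells in the Itga1 and Sparc values was not tested.

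Whether the effect after detraining differed from the effect of training was tested as a difference of the 2 fold changes. It is built from the libraries of both comparisons, where the medians of the 10 were 0.21 for training and 0.0054 for detraining. Its values are therefore not independent of theirs. For 8 of the 10 genes the difference was below 0, with a median of -0.23, against 0.0039 over all genes. None of the 10 was called with edgeR, where 4 genes, 0.0268% of those tested, were called. At an unadjusted p under 0.05 there were 2 lower, Itga1 and Lamc1, and none higher, against 4.69% of all genes lower and 4.79% higher. For Itga1 the log2 difference was -0.94 ± 0.22 (adjusted p = 0.222, edgeR, rank 34 of all genes). DESeq2 gave -0.94 with an adjusted p of 0.0202. It called Itga1 among 109 genes, 0.999% of those to which it gave an adjusted p. Over the settings tried, the edgeR adjusted p ranged from 0.0640 to 0.869 and the log2 difference stayed below 0, nearest to it at -0.19 when the 9-month groups were exchanged. For Lamc1 the log2 difference was -0.26 ± 0.11 (adjusted p = 0.471, edgeR). Sparc and Itga7 were the 2 with a difference above 0, at 0.15 ± 0.13 and 0.27 ± 0.17.

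Of the 10 genes, 7 had a higher mean in untrained mice of 9 months than in those of 6 months, and the median log2 fold change was 0.037, against -0.0053 over all genes. None was called with edgeR or with DESeq2, and edgeR called 2 genes in all, 0.0134% of those tested. Lamc1 had 107, 107 and 99.3 CPM at 9 months, against 89.0, 83.0 and 94.8 CPM at 6 months. Its libraries did not overlap, a pattern shown upward by 5.34% of all genes. The log2 fold change was 0.23 ± 0.079 (adjusted p = 0.576, edgeR). No other gene of the 10 reached an unadjusted p under 0.05, as 3.21% of all genes did upward and 3.51% downward. The other 9 lay between -0.16 and 0.23. Marker sums of 3 other cell types were also separate in this comparison. Endothelial markers summed to 452 to 485 CPM at 9 months and 405 to 443 CPM at 6 months, with 10 of 12 above 0. Markers of fibro-adipogenic progenitors summed to 812 to 926 CPM at 9 months and 706 to 791 CPM at 6 months, with 9 of 11 above 0. Leukocyte markers summed to 67.2 to 77.1 CPM at 9 months and 50.9 to 59.2 CPM at 6 months, with 11 of 11 tested above 0. Satellite cell markers had 6 of 6 above 0 (median log2 fold change 0.31) and tendon cell markers 6 of 7 (median 0.40). Pericyte and smooth muscle markers had 5 of 10 above 0 and adipocyte markers 3 of 7. Schwann cell markers had 1 of 9 above 0 (median -0.086) and red cell genes 0 of 5 (median -0.58). None of these markers was called (edgeR), and their part in the Lamc1 value was not tested. Untrained 9-month libraries also serve as controls of the detraining comparison, and untrained 6-month libraries as controls of the training comparison, so these comparisons are not independent of each other.

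**Figure D3:**
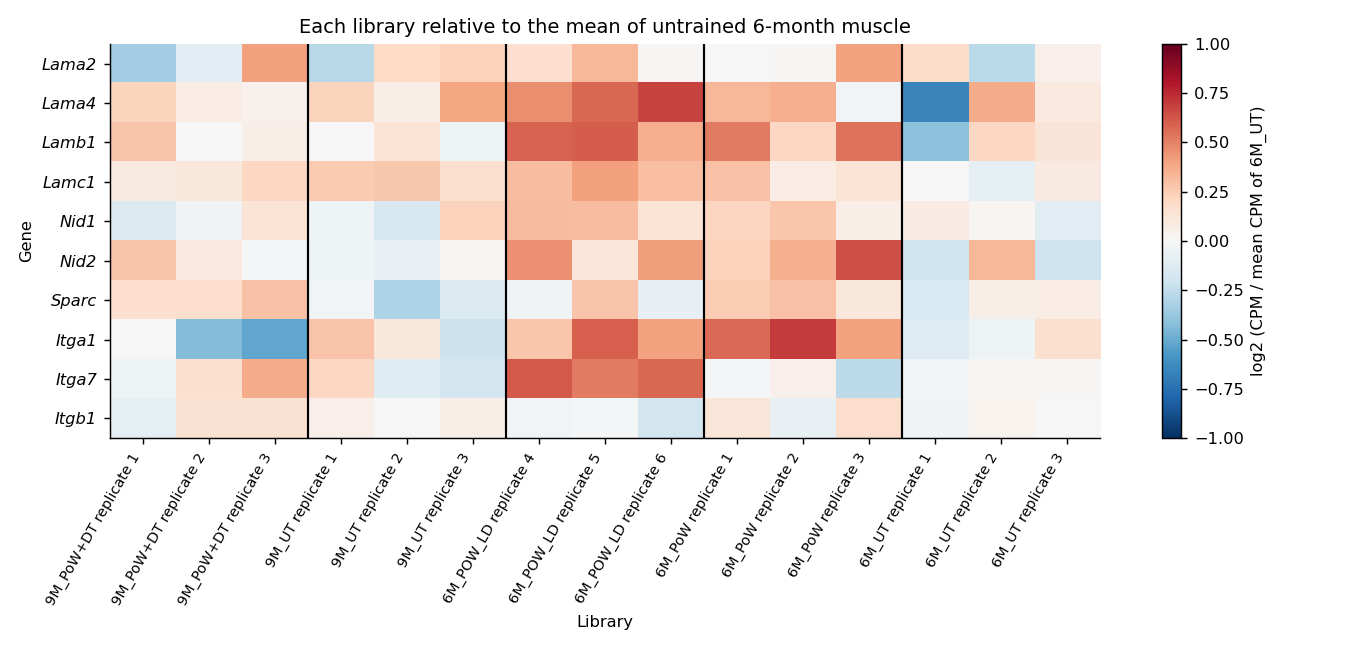
Log2 of each library's CPM over the mean CPM of 6M_UT (colour, red above and blue below), for the 10 genes (rows) and 15 libraries (columns, 3 per group, groups divided by lines). The 3 LD libraries are red for Lama4, Lamb1, Lamc1, Nid1, Nid2, Itga1 and Itga7. For Lama2 they also lie above the 6M_UT mean, LD replicate 6 only just. Itga1 is deepest blue in detrained replicates 2 and 3.

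The 3 LD libraries, titled as trained, gave the calls among these genes. Against untrained 6-month muscle, 9 of the 10 had a higher mean, with a median log2 fold change of 0.34, against 0.0083 over all 15181 genes tested. Itga7, Lamc1 and Lamb1 rose and none fell (edgeR). Over all genes, 757 were called, 4.99% of those tested, with 2.15% higher and 2.83% lower. In 6 of the 10, Lama4, Lamb1, Lamc1, Nid1, Itga1 and Itga7, every LD library was above every untrained library, against 12.6% of all genes. This comparison shares its untrained libraries with the training comparison.

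Itga7 had 96.1, 89.8 and 93.3 CPM in the LD libraries, against 61.5, 63.6 and 63.2 CPM in untrained 6-month muscle. The LD libraries formed a tight group above the highest value of the gene in any other library. Its log2 fold change was 0.57 ± 0.11, a fold of 1.48, with adjusted p = 0.00597 (edgeR). The call held with each of the 15 libraries left out in turn, with adjusted p from 0.00262 to 0.0276. Against the 6M_PoW libraries, with 61.8, 65.0 and 52.4 CPM, the log2 fold change was 0.64 ± 0.11, a fold of 1.56, with adjusted p = 0.00374 (edgeR). Here too the call held with each library left out, and it was the only 1 of the 10 called. In that comparison 365 genes, 2.40% of those tested, were called, with 1.28% higher and 1.12% lower.

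Of the 4 laminin chains among the 10 genes, Lamc1 and Lamb1 were called in the LD libraries against untrained muscle, and Lama2 and Lama4 were not. Lamc1 had 110.1, 118 and 109.6 CPM in the LD libraries, against 89.0, 83.0 and 94.8 CPM in untrained 6-month muscle, with no overlap. It rose by a log2 fold change of 0.34 ± 0.075 (adjusted p = 0.0140, edgeR). That call was lost without untrained replicate 2 (0.29, adjusted p = 0.0546), without LD replicate 5 (0.30, adjusted p = 0.0791) and with only the 2 groups in the edgeR fit (adjusted p = 0.0509). Lamb1 had 21.4, 21.5 and 18.3 CPM in the LD libraries, against 10.7, 16.4 and 15.5 CPM in untrained muscle. It rose by 0.52 ± 0.15 (adjusted p = 0.0474, edgeR), close to the threshold. The call held without trained replicate 2, untrained 6-month replicate 2 or detrained replicate 1, and was lost with any of the other 12 libraries left out, with edgeR adjusted p from 0.0503 to 0.200. The lowest fold change, 0.36, came without untrained 6-month replicate 1.

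Lama4 had 20.3, 22.0 and 23.6 CPM in the LD libraries, against 9.37, 19.1 and 15.8 CPM in untrained muscle. All LD libraries were above the untrained ones, 1 of which was far below the other 2. The log2 fold change was 0.57 ± 0.19, with adjusted p = 0.0934 (edgeR) and 0.0496 with DESeq2. It was 0.33 without untrained replicate 1, and 0.81 and called (adjusted p = 0.0186, edgeR) without untrained replicate 2. Lama2 gave 0.18 ± 0.20, Nid1 0.26 ± 0.10 and Nid2 0.34 ± 0.19 on the log2 scale, with edgeR adjusted p of 0.674, 0.173 and 0.332. Itga1 had 25.0, 31.1 and 27.2 CPM in the LD libraries, above the untrained libraries and near the 6M_PoW libraries, with 0.43 ± 0.15 (adjusted p = 0.0991, edgeR). Sparc and Itgb1 gave 0.066 ± 0.10 and -0.074 ± 0.079, with overlap. Against 6M_PoW, Lama4, Lamc1 and Itga7 were the 3 genes with every LD library above every trained one, against 10.7% of all genes, and the median of the 10 was 0.046.

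The LD libraries also differed in other cells' markers. Markers of fibro-adipogenic progenitors summed to 858 to 953 CPM in the LD libraries and 706 to 791 CPM in untrained 6-month muscle, with 11 of 11 above 0 and 5 called higher (edgeR). Leukocyte markers summed to 78.6 to 92.2 CPM and 50.9 to 59.2 CPM, with 1 called higher, and endothelial markers to 460.4 to 550.3 CPM and 405 to 443 CPM, with 1 called higher. Schwann cell markers summed to 69.2, 180.1 and 73.2 CPM in LD replicates 4, 5 and 6, against 52.4 to 61.8 CPM in untrained 6-month muscle, with 8 of 9 above 0 and a median log2 fold change of 0.76. Tendon cell markers summed to 102 to 129 CPM in the LD libraries and 68.5 to 90.0 CPM in untrained 6-month muscle, with 7 of 7 above 0 and a median of 0.55. Adipocyte markers had 1 of 7 above 0 (median -0.42), satellite cell markers 5 of 6 (median 0.51) and pericyte and smooth muscle markers 7 of 10 (median 0.26). None of the Schwann, tendon, adipocyte, satellite, pericyte or smooth muscle cell markers was called (edgeR). Haemoglobin and other red cell genes reached 3112 CPM in LD replicate 6, against 326 to 893 CPM in untrained 6-month muscle. Of 10 muscle fibre markers, 3 were called higher. The part of these cells in the calls was not tested. Without LD replicate 5, Itga7 stayed called over untrained muscle (0.59, adjusted p = 0.0199, edgeR), while Lamc1 (adjusted p = 0.0791) and Lamb1 (0.48, adjusted p = 0.163) lost their calls. Without LD replicate 6, Itga7 (0.57, adjusted p = 0.0207, edgeR) and Lamc1 (0.36, adjusted p = 0.0326) stayed called and Lamb1 (0.60, adjusted p = 0.0609) did not.

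Related genes of the same matrix and its receptors were read in 6 lists of 87 tested genes. With training, none of the 87 was called (edgeR), 21 were higher and 5 lower at an unadjusted p under 0.05, against 4.73% of all genes higher and 5.02% lower. DESeq2 called 6 of the 87, and 0.774% of all 14465 genes to which it gave an adjusted p. Of 16 other basement membrane and pericellular matrix genes, which include the collagen IV chains Col4a1 and Col4a2 that form the second network of the sheet, 15 had a higher mean in trained muscle, with a median log2 fold change of 0.47. By DESeq2, 5 of these 16 were called. The gene of the 16 with the largest rise is also a marker of fibro-adipogenic progenitors. Of 20 other integrin chains 18 had a higher mean, with a median of 0.29, and of 7 Sparc relatives 6, with a median of 0.40. Several of these integrin chains had few reads, such as Itgal at 0.449, Itga2 at 0.455 and Itgb7 at 0.617 CPM on average over the 15 libraries. None of the integrin chains was called with edgeR or with DESeq2. Of the dystroglycan complex, the other main laminin receptor of the fibre, 5 of 19 genes had a higher mean, with a median of -0.092. In the LD libraries against untrained muscle, 12 of these 19 had a higher mean, with a median of 0.11. The 19 genes of the integrin adhesome, the proteins that sit on the inner side of integrins, had a median of 0.041, and 2 of 6 other laminin chains had a higher mean, with a median of -0.13. Among those other laminin chains, none called with edgeR in any comparison, Lamc3 gave -1.51 ± 0.71 on the log2 scale with training (adjusted p = 0.510, edgeR). Lamc3 had few reads, at 0.493 CPM on average over the 15 libraries and 0.0938 to 1.72 CPM in single libraries. DESeq2 called 1 of these other laminin chains in the LD libraries against untrained muscle, and 9.03% of all genes with an adjusted p.

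In the detraining comparison none of the 87 was called with edgeR or with DESeq2, and 5 were higher and 4 lower at an unadjusted p under 0.05, against 3.22% of all genes higher and 3.29% lower. The medians were 0.13 for the other basement membrane genes, -0.16 for the other integrin chains, 0.21 for the Sparc relatives, -0.010 for the dystroglycan complex, -0.019 for the adhesome and 0.0079 for the other laminin chains. In the difference of the 2 effects, none was called with edgeR, and 3 were higher and 14 lower at an unadjusted p under 0.05, against 4.79% of all genes higher and 4.69% lower. These counts are not independent of those for training and detraining, which use the same libraries. DESeq2 called 2 of the 87, and 0.999% of all genes with an adjusted p. Between untrained mice of 9 and 6 months none was called with either tool, and 7 were higher and 1 lower at an unadjusted p under 0.05, against 3.21% of all genes higher and 3.51% lower.

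**Figure D4:**
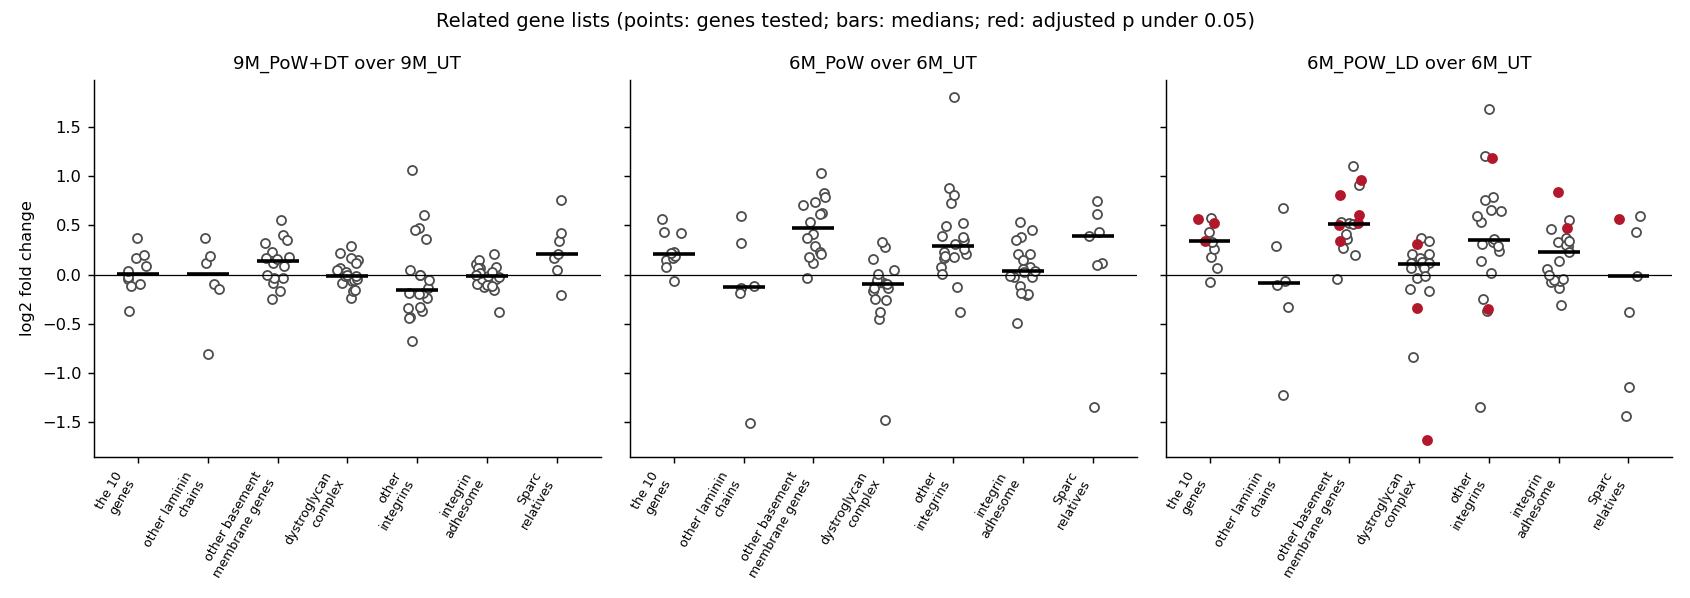
Log2 fold change (y axis) of the 10 genes and of 6 lists of related genes (x axis) in 3 comparisons. Points are genes tested, horizontal bars are medians and red points have an edgeR adjusted p under 0.05, which occurs in the LD comparison alone. The median of the other basement membrane genes lies at 0.13 for detraining, 0.47 for training and 0.52 for the LD libraries.

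In the LD libraries, 14 of the 87 related genes were called against untrained 6-month muscle, where 4.99% of all genes were. The other basement membrane genes held 6 of these calls, all higher, and a median of 0.52. Col4a2 averaged 79.6 ± 2.85 CPM in the LD libraries and 56.2 ± 1.46 CPM in untrained muscle (SD, n = 3 each), and rose by 0.50 ± 0.086 (adjusted p = 0.00248, edgeR). Its partner chain Col4a1 rose by 0.52 ± 0.091, the collagen VI chain Col6a1 by 0.61 ± 0.15 and fibronectin, Fn1, by 0.96 ± 0.23 (adjusted p = 0.00294, 0.0228 and 0.0345, edgeR). The count of 6 was 3 without untrained 6-month replicate 1, without untrained 9-month replicate 3 or without LD replicate 6, and 2 without LD replicate 5.

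Receptors and their inner partners moved in both directions there. Dag1, which encodes dystroglycan itself, rose by 0.31 ± 0.086, while the syntrophin Sntb1 fell by 1.68 ± 0.39 and the sarcoglycan Sgca fell by 0.35 ± 0.093 on the log2 scale (adjusted p = 0.0458, 0.0313 and 0.0383, edgeR). Among other integrin chains, Itgb3 averaged only 1.52 CPM over the 15 libraries and Itgb5 80.5 CPM. Itgb3 rose by 1.19 ± 0.32 and Itgb5 fell by 0.35 ± 0.081 (adjusted p = 0.0397 and 0.0181, edgeR). These 3 and 2 calls were not stable: without LD replicate 4 or LD replicate 5 neither list had any, without LD replicate 6 they had 0 and 1, and without any 1 untrained 6-month library at most 1 each, and the integrin list had 1 without 6M_PoW replicate 1. In the adhesome, Itgb1bp2, a muscle protein that binds the tail of integrin beta1, averaged 121 ± 7.07 CPM in the LD libraries, 87.9 ± 5.85 CPM in 6M_PoW and 67.6 ± 8.46 CPM in 6M_UT (SD, n = 3 each). It rose by 0.84 ± 0.096 against untrained muscle and by 0.46 ± 0.096 against 6M_PoW (adjusted p = 6.50e-05 and 0.0147, edgeR). Tln2, the talin that links integrins to actin in muscle, rose by 0.48 ± 0.072 and 0.50 ± 0.072 in the same comparisons (adjusted p = 8.71e-04 and 7.68e-04, edgeR). Against 6M_PoW, Dag1 rose by 0.47 ± 0.086 (adjusted p = 0.00539, edgeR). Itgb1bp2, Tln2 and Dag1 were the only 3 called of the 87 related genes, where 2.4% of all genes were. The adhesome had 1 call instead of 2 without 6M_PoW replicate 2, 6M_PoW replicate 3 or LD replicate 4. Smoc2, a Sparc relative that is also 1 of the 11 markers of fibro-adipogenic progenitors, rose by 0.56 ± 0.12 against untrained muscle (adjusted p = 0.0103, edgeR), a call lost without untrained 6-month replicate 1 or LD replicate 5.

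Across the 15 libraries the 10 genes moved together only loosely. Of the 45 pairs, 35 had a Pearson r above 0 on log2 CPM, with a median of 0.29. With the group means removed the median was 0.10 and 26 pairs lay above 0. The highest r was 0.72, between Lamb1 and Nid2, followed by 0.66 between Lama4 and Lamb1 and 0.63 between Lamb1 and Itga1. The lowest was -0.37, between Itga1 and Itgb1, the alpha and beta chain of 1 receptor. All genes of a library share its depth and its mix of cells, so these values describe the libraries and carry no test.

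Averaged over the 10 genes, each scaled to mean 0 and SD 1 over the 15 libraries, the score of a library ran from -1.02 in untrained 6-month replicate 1 to 1.01 in LD replicate 5. It lay between 0.35 and 1.01 in the LD libraries and between 0.30 and 0.57 in 6M_PoW. It lay between -1.02 and -0.34 in 6M_UT, between -0.45 and 0.18 in 9M_PoW+DT and between -0.51 and -0.22 in 9M_UT. The 5 genes most like this score, of 9092 ranked, were Cdc42, a small GTPase that organises actin (r = 0.94), the skeletal actin Acta1 (0.94), Fchsd2 (0.90), the matrix protein gene Hmcn2 (0.89) and Lurap1 (0.89). With the group means removed, r was 0.86 for Cdc42, 0.70 for Acta1, 0.68 for Fchsd2, 0.78 for Hmcn2 and 0.67 for Lurap1. Cdc42 averaged 136 CPM in 6M_POW_LD, 135 CPM in 6M_PoW and 118 CPM in 6M_UT, and 121 CPM in both 9-month groups.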

How the data were processed

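RNA of plantaris muscle was sequenced in 15 libraries, 3 in each of 5 groups taken from the titles. Expected counts for each gene, deposited by the authors as a single table, had non-whole values for 26.2% to 31.3% of the genes in a library. STAR 2.7.3a, DESeq2, Partek and mm10 appear per the submitters' processing notes, which give no roles. How reads were counted, whether strand was used and which annotation served are not stated in those sources. Gene ends are the deposited stop positions less 1. With that, all 10 positions matched the GENCODE annotation for mm10, which gave the exon lengths.

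Expected counts were rounded. Genes were kept by filterByExpr (14919 in the 12 libraries without LD, 15181 in all 15), scaled with TMM (trimmed mean of M values) and tested with a robust quasi-likelihood model of group means (edgeR 4.0.16, R 4.3.3). The first 4 comparisons used the fit of 12 libraries, the 2 with LD that of 15. Benjamini-Hochberg adjustment of p-values ran over all genes of a comparison. An adjusted p under 0.05 was a call. The code was tested on simulated counts. Levels are CPM on effective library totals. No replicate pair agreed within sampling noise, with a chi-square of at least 10.1 per degree of freedom over the 15 pairs.

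The alternatives were DESeq2 1.42.0, its size factors, no filter, at least 1 CPM in at least 3 libraries, each library left out, only the groups compared, a replicate block, LD libraries added to either 6-month group, and the 9-month groups exchanged. The members, lists and tests were chosen with earlier results of these data known. All 10 genes are named in every comparison. From each related list, up to 4 called genes with the smallest p are named, or up to 2 with the smallest p with training where none was called. One gene that this rule names is not reported here. The like genes are the 5 of highest Pearson r among genes with an official symbol and a mean log2 CPM of at least 2.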

Additional observations from a re-analysis of the deposited data

How the results depend on the processing

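Itga7 in both LD comparisons was called under all 20 alternatives of each, with log2 fold changes of 0.54 to 0.59 against untrained and 0.56 to 0.70 against trained libraries. For training, detraining and age, 0 of the 10 genes were called under every alternative, and for the difference DESeq2 called 1, Itga1. The counts of called genes depended on the tool. DESeq2 called 112 genes for training, 28 for detraining, 109 for the difference, 53 for age, 1164 for LD against untrained and 661 for LD against trained libraries. Without a filter there were 8 for training, 10 for the difference and 10 for age. With only the groups compared there were 4 for training, 18 for detraining, 10 for age and 387 for LD against untrained libraries, with 1 of the 10 genes called there.

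Leaving out each library in turn gave 0 to 10 called genes for training, 1 to 6 for detraining, 0 to 26 for the difference, 1 to 15 for age, 288 to 827 for LD against untrained and 157 to 428 for LD against trained libraries. Of the 10 genes, 1 to 3 were called for LD against untrained libraries, 1 of them without LD replicate 5. Medians of the 10 ran from 0.19 to 0.27 for training, from -0.30 to -0.17 for the difference and from -0.024 to 0.11 for LD against trained libraries, where it was below 0 without 6M_PoW replicate 2. No gene of the following ranges was called, and each range crossed 0. For training they were -0.14 to 0.021 for Itga7 and -0.011 to 0.46 for Lama4. For detraining they were -0.29 to 0.11 for Lama2, -0.0030 to 0.14 for Lamb1, -0.11 to 0.093 for Nid1 and -0.0056 to 0.11 for Itgb1, and for the difference -0.11 to 0.032 for Itgb1. For age they were -0.049 to 0.22 for Lama2, -0.012 to 0.46 for Lama4, -0.13 to 0.15 for Lamb1, -0.10 to 0.10 for Nid1, -0.13 to 0.17 for Nid2, -0.043 to 0.20 for Itga1 and -0.15 to 0.053 for Itga7. For LD they were -0.059 to 0.14 for Sparc against untrained libraries, and -0.060 to 0.17 for Lama2, -0.010 to 0.17 for Lamb1 and -0.17 to 0.047 for Nid2 against trained ones.

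Other readings of the labels were tried too. With LD libraries counted as trained, 29 genes were called for training and 2 for the difference, the training median was 0.27, Itga7 was 0.28 for training and -0.088 for the difference, and Itgb1 was 0.030 for the difference. With LD libraries counted as untrained, the medians were 0.087 for training, -0.077 for the difference, with 1 gene called, and -0.14 for age. Training then gave -0.084 for Lama4 and -0.0086 for Lamc1, and age gave -0.022 for Lama2, -0.085 for Lama4, -0.25 for Lamb1, -0.11 for Nid1 and -0.16 for Itga1. Exchanging the 9-month groups turns every detraining value by construction: 0.047 for Lama2, 0.11 for Lama4, -0.089 for Lamb1, 0.092 for Lamc1, 0.024 for Nid1, -0.17 for Nid2, -0.37 for Sparc, 0.38 for Itga1, -0.20 for Itga7 and -0.035 for Itgb1. The difference then called 0 genes, with a median of -0.15, Sparc at -0.59 and Itga7 at -0.13. Age then called 0 genes, with a median of 0.12, Nid1 at -0.0057, Nid2 at 0.13, Sparc at 0.22, Itga1 at -0.30 and Itga7 at 0.17. The cause of these shifts was not tested.

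Deviations from the group means of libraries with the same replicate number in their titles correlated at -0.20 to 0.15. Libraries of unlike number were not compared, so a pairing by number cannot be judged from these values. LD libraries share no number with other groups. With a replicate block, 1 gene was called for training and 5 for age, and the count of the 10 genes called stayed at 0. Between DESeq2's size factors and the trimmed mean of M values, the median of all genes differed by less than 0.1. Nid2 had the lowest counts of the 10 genes.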
